A study of Mus musculus with 6 samples.

Results

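Inflammasomes are protein assemblies that turn on inflammatory caspases in macrophages and other cells. The 10 genes described here encode 4 sensors (Nlrp3, Nlrc4, Naip2 and Aim2), the adaptor ASC (Pycard), caspase-1 (Casp1), caspase-11 (Casp4), the pore-forming protein gasdermin D (Gsdmd) and the cytokines IL-1beta (Il1b) and IL-18 (Il18). They were chosen by symbol, as the core of the pathway from sensor to product, and all 10 were found among 48795 genes in the deposited table. All 10 also passed the count filter used here, at least 10 counts in at least 3 libraries, as did 12627 genes in all.

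Sensors detect a microbial product or a disturbance of the cell and recruit, mostly through ASC, caspase-1, which cuts the IL-1beta and IL-18 precursors and gasdermin D. Caspase-11 binds bacterial lipopolysaccharide in the cytosol and also cuts gasdermin D. In resting macrophages, Il18 is transcribed constitutively, whereas Il1b and Nlrp3 are known to need priming through NF-kB. Messenger RNA levels report the supply of these components, not assembly, cleavage or release.

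The RNA was that of airway cells, washed out by bronchoalveolar lavage. The donors were C57BL/6 mice, wild type, male and female, 8 to 12 weeks old. A dose of 100 ng/kg cadmium chloride, or saline, had been instilled intratracheally 7 days before. The 6 libraries are titled CD170, CD171, CD174, CD176, CD177 and CD178, names that are not surface antigens. The labels used here attach neither an exposure nor a sex to any of them, so no effect of cadmium was analysed and every value below is given by library.

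The libraries held 7732244 gene counts in CD174 to 23599369 in CD178. Reads in no annotated gene took 25.01% of all counts in CD174 and 16.6% in CD171, against 6.495 to 7.29% in the other libraries. The alveolar macrophage markers fixed for this work, 15 genes with all 15 past the filter, summed to between 30780 CPM (counts scaled for library size) in CD171 and 37890 CPM in CD177, so the cells carried the transcripts of the resident airspace macrophage. The epithelial marker list of 13 genes reached 3448 CPM in CD174 and 403.2 to 793.2 CPM in the others. Of that list, Epcam (168.0 to 229.2 CPM) and Cdh1 (70.93 to 85.32 CPM) were nearly flat and made up much of the lower sums. Sftpc ran from 41.44 CPM in CD170 to 1602 CPM in CD174. The red cell list of 6 genes lay between 111.7 (CD177) and 2882 CPM (CD170). In bulk RNA, fewer cells of a type and less RNA per cell cannot be told apart.

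Promoter windows of 300 bases were available from RefSeq (GRCm38.p6) for 9 of the 10 genes. They were 11 in all, since Casp4 and Nlrp3 each had a further window at another start site. Gsdmd is named only. Of these windows, 3 are shown: those of Il1b and Casp4, which had the widest ranges between libraries, and that of Il18, the most abundant member. Each runs 5′ to 3′ on the gene's own strand, from 250 bases before the start site to 49 after it. Capitals mark matches, on either strand, to the NF-kB pattern (GGG, any 2 bases, TTTCC) or to TATAAA, the core of the TATA box.
Il1b: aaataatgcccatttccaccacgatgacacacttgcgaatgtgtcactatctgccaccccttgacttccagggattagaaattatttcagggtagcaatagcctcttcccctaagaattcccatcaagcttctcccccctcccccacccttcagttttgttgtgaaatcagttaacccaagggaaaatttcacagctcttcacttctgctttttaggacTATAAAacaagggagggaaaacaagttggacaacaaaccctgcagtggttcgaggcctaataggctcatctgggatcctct
Casp4: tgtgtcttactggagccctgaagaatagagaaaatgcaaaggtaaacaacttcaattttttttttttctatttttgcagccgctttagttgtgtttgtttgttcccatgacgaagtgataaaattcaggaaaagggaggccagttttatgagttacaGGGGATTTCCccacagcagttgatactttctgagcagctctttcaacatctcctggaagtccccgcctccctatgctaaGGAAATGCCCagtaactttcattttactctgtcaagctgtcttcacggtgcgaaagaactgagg
Il18: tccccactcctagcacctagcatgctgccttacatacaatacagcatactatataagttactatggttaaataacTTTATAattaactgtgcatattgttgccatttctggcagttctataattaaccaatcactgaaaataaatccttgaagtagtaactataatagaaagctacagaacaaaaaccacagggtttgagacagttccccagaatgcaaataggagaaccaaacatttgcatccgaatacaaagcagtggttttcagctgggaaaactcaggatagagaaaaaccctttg
The Il1b window is chr2:129371090-129371389 on the minus strand, the Casp4 window chr9:5308599-5308898 on the plus strand, and the Il18 window chr9:50554450-50554749 on the plus strand. The Il1b window held TATAAA at -31 to -26 from the start site. The Il18 window held it on the opposite strand at -175 to -170. TATAAA is in 13.6% of the 32851 promoter windows of this length. The Casp4 window held 2 NF-kB matches, GGGGATTTCC at -93 to -84 and GGAAATGCCC, a match on the opposite strand, at -14 to -5. That pattern is in 1.63% of all windows and, among the 9 members with a window, was found in Casp4 alone. The ETS pattern GAGGAAG, which the myeloid factor PU.1 can bind, was in the windows of Aim2 and Pycard and in 13.6% of all windows. It was also in the Nlrp3 window that starts at 59542436, but not in that starting at 59541319. A match is a description of the letters, not a bound site.

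Divided by the length of the merged exons, which lets genes be compared, Il18 was the most abundant member in each of the 6 libraries, with a median of 309.2 CPM per kilobase. Casp1 was second in each library, with a median of 71.2 CPM per kilobase. Naip2 (34.8 CPM per kilobase) and Gsdmd (26.5) came next by median, followed by Il1b (17.4), Nlrp3 (14.6), Aim2 (13.6), Nlrc4 (7.502), Pycard (6.71) and Casp4 (4.69). The ranges over libraries of Il18, Casp1, Naip2 and Gsdmd did not overlap one another. Il1b overlapped Casp1, Naip2 and Gsdmd through CD176, and it overlapped Nlrp3, Aim2 and Nlrc4, which also overlapped each other. The ranges of Nlrc4, Pycard and Casp4 overlapped as well. With the longest transcript in place of merged exons, Il18 was still highest by median and Pycard became the lowest at 6.71 CPM per kilobase, because the Casp4 merged exons of 3710 bases shrink to a transcript of 1901 bases. For Pycard both lengths are 3800 bases, nearly the whole gene (127989708 to 127993867). Its low place by either length rests on that value, and a shorter transcript would raise its level per kilobase.

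**Figure D1:**
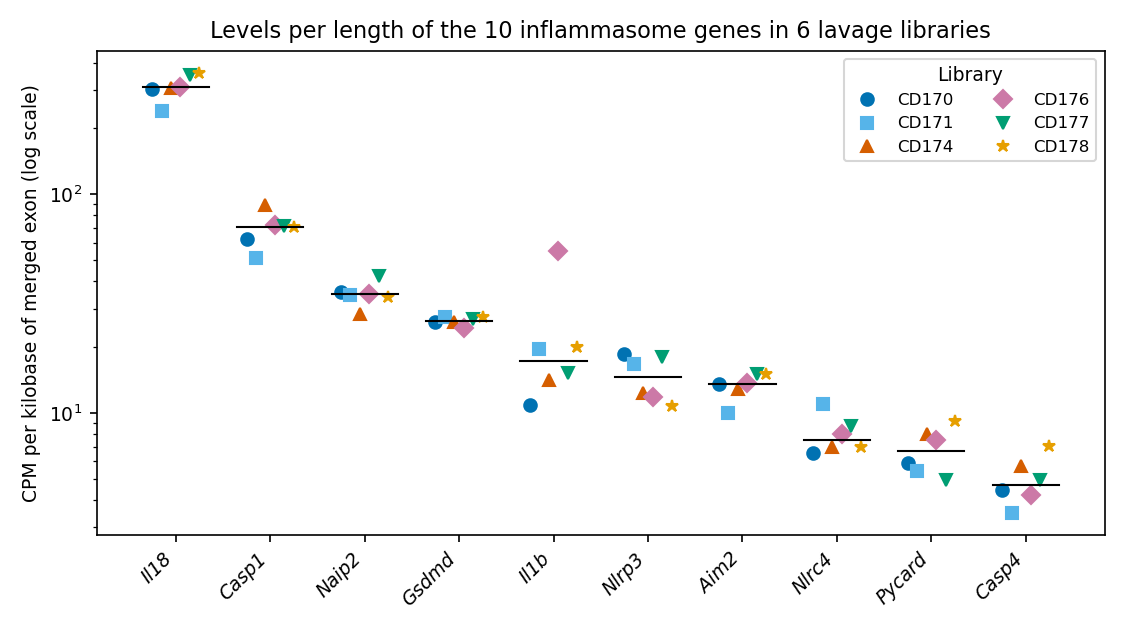
Level of each of the 10 genes in each of the 6 libraries, as CPM per kilobase of merged exon on a log axis. Symbols are libraries and black lines are medians; Il18 sits highest, and the CD176 point of Il1b, at 54.98, stands above the other 5 libraries.

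Il1b was the member that differed most between libraries. Il1b (ENSMUSG00000027398, chromosome 2, 129364570 to 129371139, minus strand, GRCm38) had 104.8 CPM in CD176, 38.1 in CD178, 37.3 in CD171, 28.9 in CD177, 26.95 in CD174 and 20.7 in CD170. These levels rest on between 181 counts in CD174 and 1605 in CD176. CD176 was the one high library, and its 95% counting interval of 99.8 to 110.1 CPM did not meet that of any other. Il1b in CD176 was 2.75 times the next library, CD178 (95% counting interval 2.54 to 2.99), and 5.05 times the lowest, CD170 (4.52 to 5.66). Of the 12627 filtered genes, 0.348%, 44 in number, had CD176 as the highest library at 2 times the next or more. Il1b was the only one of the 10 inflammasome genes among them, as it was among the 0.261% of genes whose gap between CD176 and the next library was large by Dixon's criterion for outliers. Both shares count CD176 alone, the library where Il1b was highest, and were not computed for the other libraries. By log2 range over the 6 libraries, 78.5% of filtered genes had a smaller range than Il1b. Il1b also stood at 3.63 times the median of the other 5 libraries. The remaining libraries were not uniform, since CD170 was below each of the others beyond counting error.

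Il18 (ENSMUSG00000039217, chromosome 9, 50554827 to 50581840, plus strand), the other cytokine substrate of caspase-1, had 370.7 CPM in CD178, 361.5 in CD177, 320.4 in CD176, 317.2 in CD174, 311.0 in CD170 and 248.1 in CD171. CD171 was the low library, and the highest, CD178, was 1.49 times as high (95% counting interval 1.44 to 1.56). Il18 in CD176 lay in the middle of this range. Within a library, counts of Il1b divided by those of Il18 need no scaling between libraries. That ratio was 0.327 in CD176, 0.150 in CD171, 0.103 in CD178, 0.0850 in CD174, 0.0799 in CD177 and 0.0667 in CD170. The interval in CD176, 0.309 to 0.346, lay above all others, the next being 0.136 to 0.165 in CD171. Neither cytokine gene shared more than 25 bases of merged exon with another gene; those 25 bases of Il1b overlap the antisense gene Il1bos, which had at most 6 counts.

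**Figure D2:**
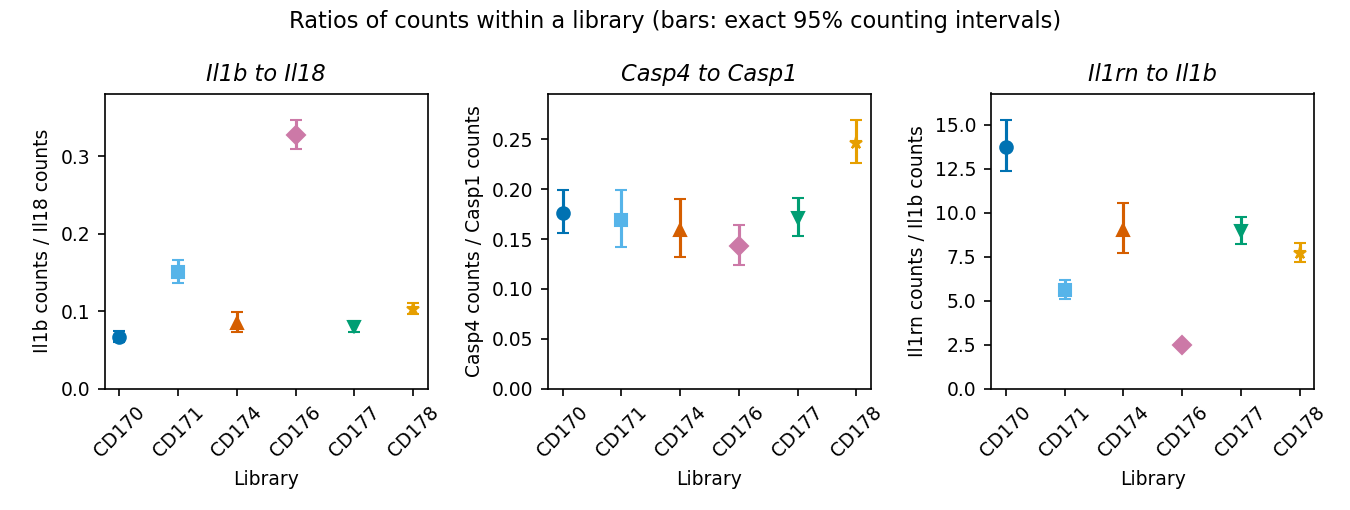
Ratios of counts within each library, with exact 95% counting intervals as bars, for Il1b to Il18, Casp4 to Casp1 and Il1rn to Il1b; each axis starts at 0. CD176 has the highest Il1b to Il18 ratio (0.327) and the lowest Il1rn to Il1b ratio (2.49), and CD178 the highest Casp4 to Casp1 ratio (0.247).

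The sensors spanned less than 2-fold each, and their high and low libraries differed. Nlrp3 (ENSMUSG00000032691, chromosome 11, 59541568 to 59566956, plus strand), which responds to potassium loss, crystals and other disturbances, had 75.4 CPM in CD170, 73.0 in CD177, 68.15 in CD171, 50.03 in CD174, 47.9 in CD176 and 43.5 in CD178. The values fell into a higher set of 3 libraries, CD170, CD171 and CD177, and a lower set of 3, whose counting intervals did not meet. The range was 1.73-fold (95% counting interval 1.60 to 1.88). CD176, the library with the most Il1b, was in the lower set for Nlrp3.

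Nlrc4 (ENSMUSG00000039193, chromosome 17, 74425438 to 74459142, minus strand), which assembles on NAIP proteins that have bound bacterial flagellin or secretion system parts, had 52.6 CPM in CD171, 41.7 in CD177, 38.5 in CD176, 33.65 in CD174, 33.5 in CD178 and 31.35 in CD170. CD171 was the high library, at 1.26 times the next (95% counting interval 1.14 to 1.40). The ratio of Nlrp3 to Nlrc4 counts ran from 1.24 in CD176 to 2.40 in CD170. Naip2 (ENSMUSG00000078945, chromosome 13, 100144063 to 100202092, minus strand), the NAIP that binds the rod protein of bacterial type III secretion systems, had 204.4 CPM in CD177, 172.5 in CD170, 170.1 in CD176, 167.3 in CD171, 164.6 in CD178 and 137.4 in CD174. CD174 was low and CD177 high, with the other 4 libraries between 164.6 and 172.5 CPM. Naip2 took 58.4% (CD174; 95% Clopper-Pearson interval 55.9 to 60.9) to 66.7% (CD171; 65.1 to 68.4) of the counts of Naip1, Naip2, Naip5 and Naip6. These genes are close copies, so reads could have been split or discarded between them and each level is uncertain.

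Aim2 (ENSMUSG00000037860, chromosome 1, 173350879 to 173466040, plus strand), a sensor of DNA in the cytosol, had 52.8 CPM in CD178, 52.6 in CD177, 47.75 in CD176, 47.4 in CD170, 44.97 in CD174 and 35.1 in CD171. CD171 was the low library, at 0.781 of the next lowest (95% counting interval 0.674 to 0.906). The ratio of Nlrp3 to Aim2 counts was 1.94 in CD171 and 0.824 in CD178, so Nlrp3 had more counts than Aim2 in the first and fewer in the second.

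Pycard (ENSMUSG00000030793, chromosome 7, 127989708 to 127993867, minus strand), which links most sensors to caspase-1, had 34.8 CPM in CD178, 30.4 in CD174, 28.6 in CD176, 22.4 in CD170, 20.7 in CD171 and 18.7 in CD177. The whole range was 1.86-fold (1.65 to 2.10). With the main scaling, CD174, CD176 and CD178 were higher than the other 3 libraries, with counting intervals that did not meet. These are the libraries of the lower Nlrp3 set. The place of CD174 depends on its scaling factor of 0.8685, which raises its CPM, and the intervals of Pycard were not recomputed with total counts. Of the merged exons of Pycard 12.8% lie under a gene on the opposite strand, Gm45205, which had at most 9 counts.

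Casp1 (ENSMUSG00000025888, chromosome 9, 5298517 to 5307265, plus strand) had 133.1 CPM in CD174, 108.7 in CD176, 107.0 in CD177, 106.0 in CD178, 93.7 in CD170 and 76.8 in CD171. With the main scaling CD174 was the high library and CD171 the low one, with CD176, CD177 and CD178 indistinguishable by counting error. The lead of CD174 depends on its scaling factor of 0.8685, which raises its CPM. With libraries scaled by total counts the log2 range of Casp1 was 0.58, against 0.79 with the main scaling. Its neighbour Casp4 (ENSMUSG00000033538, chromosome 9, 5308828 to 5336783, plus strand) had 26.15 CPM in CD178, 21.1 in CD174, 18.3 in CD177, 16.5 in CD170, 15.55 in CD176 and 12.97 in CD171. CD178 was highest, at 2.02 times CD171 (95% counting interval 1.70 to 2.41). Counts of Casp4 were 0.247 of those of Casp1 in CD178 (0.226 to 0.269) and between 0.143 and 0.176 in the other libraries, where the intervals overlapped. Casp12, another caspase gene in that cluster, had at most 5 counts; it was chosen after its values were seen.

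Gsdmd (ENSMUSG00000022575, chromosome 15, 75862327 to 75867408, plus strand), whose cut amino-terminal part forms the pores of pyroptosis, had the smallest range between the 6 libraries. Its levels were 65.5 CPM in CD171, 65.15 in CD178, 63.6 in CD177, 62.1 in CD174, 61.97 in CD170 and 58.1 in CD176. The highest and lowest libraries differed 1.13-fold (95% counting interval 1.03 to 1.24), and only 0.341% of filtered genes had a smaller log2 range. With libraries scaled by total counts its log2 range was 0.32, against 0.17 with the main scaling, and without CD176 it was 0.08. Without CD171 and CD174 the range of Aim2, 0.15, was smaller than that of Gsdmd, 0.17.

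**Figure D3:**
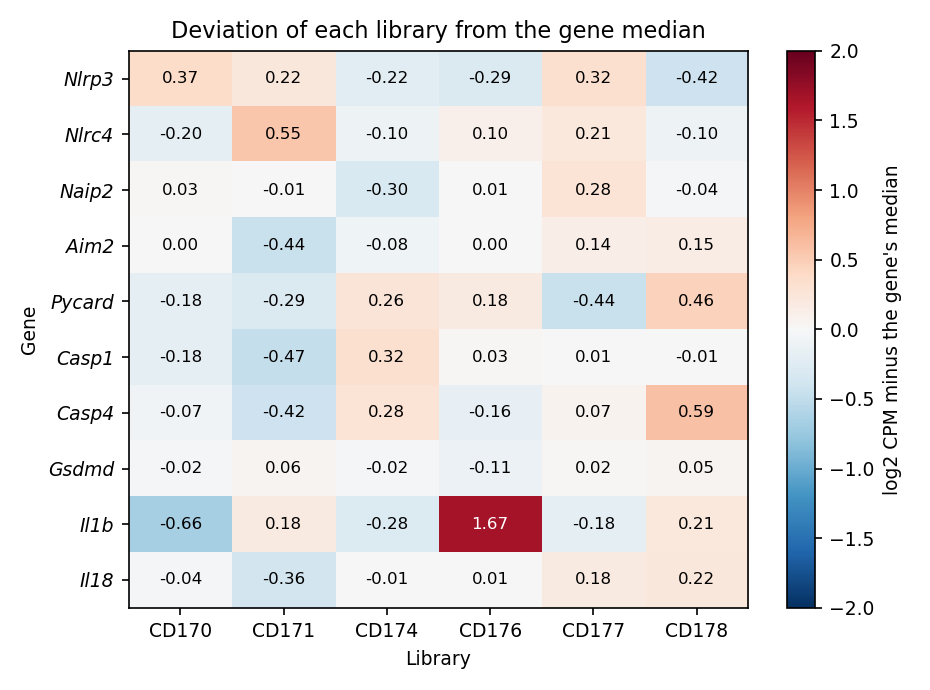
Heat map of log2 CPM minus the gene's median over the 6 libraries, with genes as rows and libraries as columns. Il1b in CD176 is the largest deviation at 1.67, and the Gsdmd row lies between -0.11 and 0.06.

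A log2 CPM range of 1 or more between libraries was found for 2 of the 10, Il1b (2.33) and Casp4 (1.01), and for 50.5% of all filtered genes. Among the 8297 filtered genes with a median of at least 10 CPM, which all 10 members reached, the share was 28.9%. The median log2 range was 0.77 for the members, 1.01 for all filtered genes and 0.74 for those with a median of at least 10 CPM, so the members lay near genes of like abundance. Without CD171 and CD174 it was 0.36 for the members and 0.45 for all filtered genes. Casp4 lay just past the threshold and Pycard, at 0.89, just under it, and Casp4 was at 0.99 with DESeq2 size factors and, by library left out, at 0.75 without CD171, 0.99 without CD174 and 0.70 without CD178. Without CD176 the range of Il1b was 0.88. Without CD171 and CD174, the libraries with the most reads in no annotated gene, 1 of the 10 had such a range, against 16.9% of all genes; that member was Il1b.

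**Figure D4:**
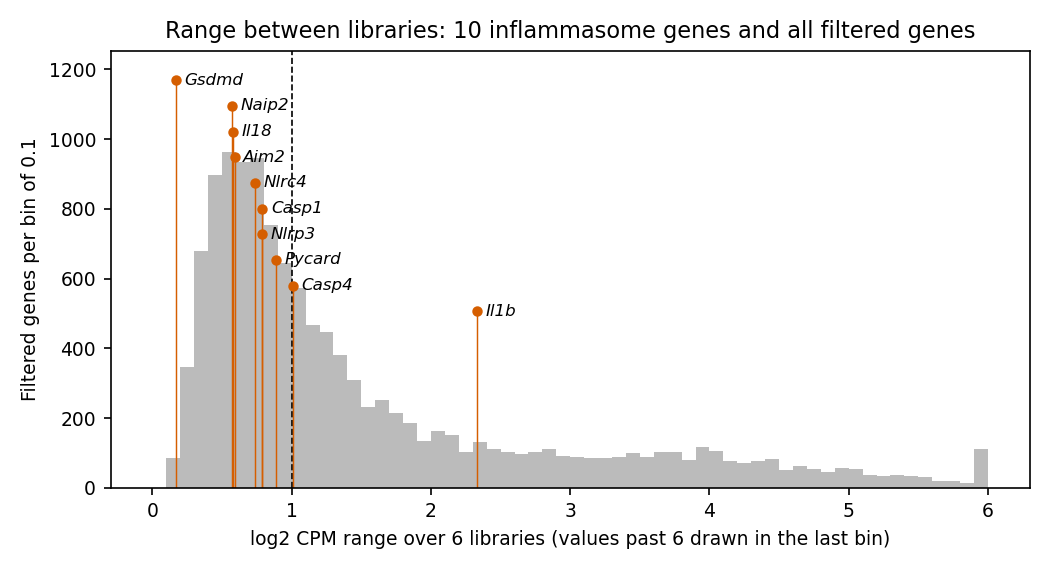
Histogram of the log2 CPM range over 6 libraries for 12627 filtered genes, in bins of 0.1, with the 10 inflammasome genes marked at staggered heights and a dashed line at 1. Il1b lies at 2.33, Casp4 at 1.01 on the line, and the other 8 below it.

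CD178 was the highest library for 4 of the 10 members (Il18, Aim2, Pycard and Casp4), and for 11.5% of all filtered genes. CD171 was the lowest for 4 of the 10 (Il18, Aim2, Casp1 and Casp4), and for 23.9% of all filtered genes. CD174 was lowest for 1 member, Naip2, against 37.2% of all genes, and highest for Casp1, against 29.9%. CD171 was highest for Nlrc4 and Gsdmd (20.1% of all genes), CD170 for Nlrp3 (14.5%), CD177 for Naip2 (12.5%) and CD176 for Il1b (11.5%). CD170 was lowest for Il1b and Nlrc4 (10.5%), CD177 for Pycard (10.5%), CD178 for Nlrp3 (9.12%) and CD176 for Gsdmd (8.81%). The alveolar macrophage marker sum was also lowest in CD171, and its part in the low member levels there was not tested. Summed over the 10 members, the libraries ran from 784.4 CPM in CD171 to 969.7 CPM in CD177.

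In CD176, the library with the most Il1b, the marker sums of other leukocytes lay within the range of the other 5 libraries. The neutrophil list summed to 43.8 CPM in CD176, inside the range of 43.5 to 59.2 CPM over the 6 libraries. Of its 11 genes, 3 passed the filter. Csf3r, the receptor for granulocyte colony-stimulating factor, made up most of the sum, with 28.0 CPM in CD176 and 23.2 to 41.8 CPM over all. S100a8 had 7.64 CPM in CD176 and 5.62 to 13.9 CPM over all, and Cxcr2 had 7.32 CPM in CD176 and 3.61 to 8.83 CPM over all. Ly6g and Elane had 0 counts in all libraries, where 0 counts allow up to 0.447 CPM in the shallowest, and S100a9 had at most 11 counts. The list of 9 recruited monocyte and macrophage genes, 5 past the filter, summed to 26.5 CPM in CD176, within 14.6 to 34.0 CPM over all. The dendritic cell list of 7 genes stood at 14.6 CPM in CD176 and 9.38 to 20.5 CPM over all. Of these, 5 passed the filter, among them Ccr7 at 6.47 CPM in CD176 and 5.06 to 12.6 CPM over all, Clec9a at 3.20 CPM in CD176 and Zbtb46, which was highest in CD176 at 2.55 CPM. Siglech was at 0 counts in each library. The T, NK and B cell list of 11 genes stood at 3.14 CPM in CD176 and 2.28 to 7.15 CPM over all. Of these, 2 passed the filter, Trac with 0.980 CPM in CD176 and up to 4.32 CPM in CD174, and Cd3d with 0.131 CPM in CD176 and up to 2.55 CPM in CD171. Nkg7 and Klrb1c were at 0 counts throughout. The epithelial list was at 760.3 CPM in CD176, below CD178 and CD174. CD174 was highest for 11 of its 13 genes, against 29.9% of all filtered genes, and CD176 for Foxj1 alone (4.57 CPM), against 11.5%. Scgb3a1 and Scgb3a2 stood at 53.5 and 69.05 CPM in CD176, above CD178 and below CD174.

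Among 18 other genes that NF-kB is known to induce with Il1b, 13 passed the filter, and 8 of these ranged by 1 or more on the log2 scale, as did 50.5% of all filtered genes and 28.9% of those with a median of at least 10 CPM. CD176 was the highest library for Il1a alone of the 13, against 11.5% of all filtered genes, and CD174 for 6, against 29.9%. The sum of the list was highest in CD176, at 1539 CPM, against 1329 (CD177) to 1514 CPM (CD170) in the others. Tnfaip2 made up most of that sum, with 881.8 CPM in CD176 and its highest level, 1009 CPM, in CD170. Below the filter, Il6 (5 counts) and Cxcl1 (3 counts) were highest in CD176, and Ccl4, Ptgs2 and Nos2 in other libraries. Il1a, which encodes IL-1alpha, had 31.9 CPM in CD176, 25.2 in CD170, 23.5 in CD177, 17.8 in CD178, 8.41 in CD171 and 6.55 in CD174. Its counts exceeded those of Il1b in CD170, with a ratio of 1.22 (95% counting interval 1.06 to 1.39), and were 0.226 of them in CD171. Zfp36, which promotes decay of cytokine messages, was at 277.7 CPM in CD176 and 285.0 in CD174, and the chemokine Ccl3 at 16.7 and 17.6 CPM in these libraries. Tnfaip2 and Icam1, the other abundant members, had log2 ranges of 0.47 and 0.83.

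Of 21 receptors and transcription factors of the priming step, all past the filter, 3 ranged by 1 or more on the log2 scale, to be read against the same shares of 50.5% and 28.9%, as are the counts for the lists that follow. Tlr2, a receptor for bacterial lipoproteins, ran from 577.3 CPM in CD171 to 761.1 in CD178. Spi1, which encodes PU.1, ran from 536.7 CPM in CD178 to 782.7 in CD174. Cebpb, a transcription factor of activated macrophages, ran from 625.0 CPM in CD177 to 1447 in CD174, and Nfkbie, an inhibitor of NF-kB, from 10.3 CPM in CD171 to 33.5 in CD174. For this list CD176 was highest for 1 gene and CD174 for 7, where the shares over all filtered genes were 11.5% and 29.9%.

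Among 13 other sensor genes, 10 passed the filter and 5 of these ranged that widely. Naip5, which binds flagellin, ran from 53.1 CPM in CD171 to 88.6 in CD177, and Naip6, its close copy, from 28.6 to 40.9 CPM in the same libraries. Nod1, a sensor of bacterial cell wall fragments, ran from 47.1 to 83.2 CPM, again lowest in CD171 and highest in CD177. Nlrp10 reached 14.9 CPM in CD174 and 3.79 to 7.26 CPM elsewhere, whereas Zbp1, a sensor of left-handed nucleic acids, was lowest in CD174 at 5.36 CPM and 10.1 to 15.5 CPM elsewhere. CD177 was the highest library for 6 of these 10 sensors, and for 12.5% of all filtered genes. Mefv had 0 counts in each library.

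Of 20 partners and regulators, all past the filter, 5 had a log2 range of at least 1. Txnip, which can bind NLRP3, ran from 857.7 CPM in CD177 to 1369 in CD176. Hspa8, a constitutive chaperone, ran from 1661 CPM in CD170 to 3034 in CD176. Serpinb1a, a protease inhibitor that limits caspase-1 activation, ran from 204.4 CPM in CD171 to 379.2 in CD178, and Serpinb9, a granzyme B inhibitor, from 9.88 CPM in CD171 to 23.4 in CD174. Fadd, an adaptor of caspase-8, ran from 9.42 CPM in CD171 to 25.02 in CD174. Of the related membrane genes, 6 of 11, all of them gasdermins, had 0 counts in each library, and 4 passed the filter. Gsdme, a gasdermin cut by caspase-3, ran from 1.19 CPM in CD174 to 12.1 in CD178. Ninj1, which ruptures the membrane of dying cells, was at 22.8 CPM in CD174 and 5.56 to 9.34 CPM elsewhere, while the membrane repair genes Chmp4b and Chmp3 ran from 252.9 to 423.0 and from 139.7 to 187.1 CPM.

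Il1rn, which encodes the IL-1 receptor antagonist, was far steadier than Il1b, at 209.2 CPM in CD171 to 293.9 CPM in CD178. Its counts were 2.49 times those of Il1b in CD176 (95% counting interval 2.35 to 2.64), 5.61 times in CD171, and 7.71 to 13.7 times in the other 4 libraries. Of 19 IL-1 family ligands, receptors and signalling genes, 16 were in the table and 14 passed the filter, of which 7 ranged by 1 or more on the log2 scale. The receptor kinases Irak1 and Irak2 ran from 92.6 to 119.2 CPM and from 42.5 to 80.7 CPM.

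**Figure D5:**
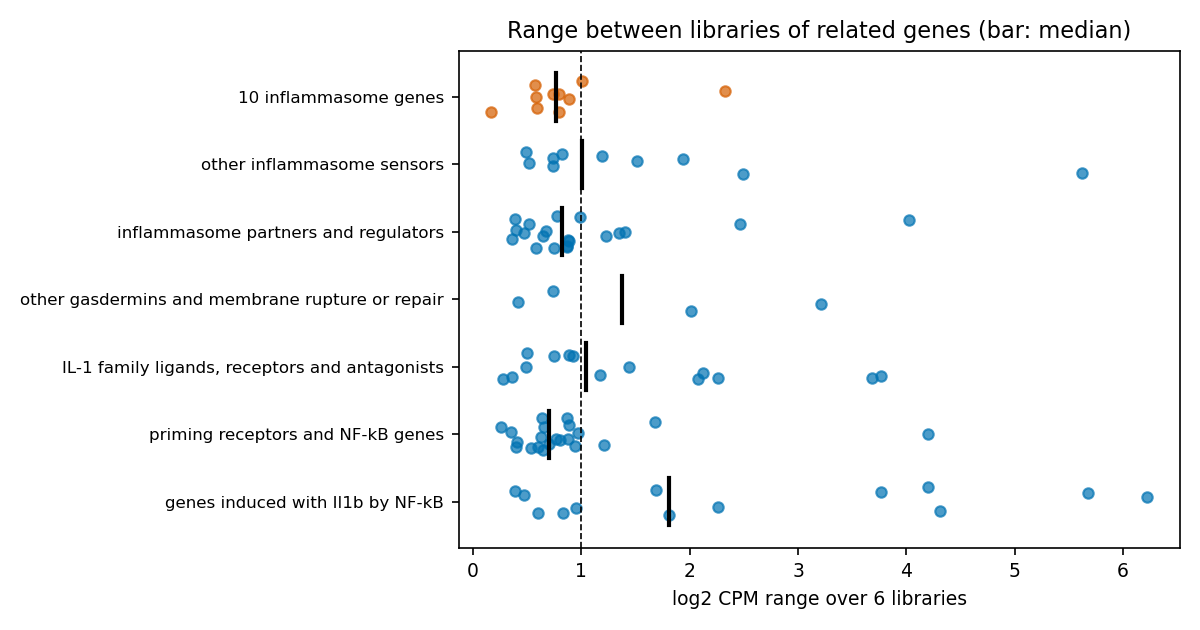
Log2 CPM range over 6 libraries for each filtered gene, in rows for the 10 inflammasome genes and 6 related lists, with medians as bars and a dashed line at 1. The medians are 0.77 for the inflammasome genes, 0.70 for priming receptors and NF-kB genes and 1.81 for genes induced with Il1b.

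Over the 6 libraries, the genes whose log2 CPM followed Il1b most closely, among 8296 with a median of at least 10 CPM, were Rpp30, H2-Ab1, Dusp22, Fam193b and Pex7, with Pearson's r of 0.966, 0.957, 0.953, 0.940 and 0.936. A value of 0.95 or more was reached by 3 genes. These genes were steadier than Il1b, with log2 ranges of 0.52 to 0.80, and H2-Ab1, a chain of MHC class II, ran from 246.0 CPM in CD170 to 427.5 CPM in CD176. Without CD176 their r with Il1b fell to between 0.77 and 0.87. For Casp4 the closest were Mgst3, Serpinb1a, Atr, Rfc3 and Rasgrp4, at 0.968 to 0.974, and 11 genes reached 0.95. With 6 points that share depth and library quality, and 8296 genes searched, these values describe the libraries and carry no test.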

How the data were processed

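RNA from lavage cells was sequenced in 6 libraries. The authors deposited raw read counts per gene, not normalized. The submitters' processing notes name HTSeq 0.11.2, STAR 2.7.1a, Trim Galore 0.6.2 and bcl2fastq 2.18.0.12, and build GRCm38. Annotation and strandedness: not given in the sources used here, so a gene's reads may include those of an overlapping or antisense partner. Symbols, lengths and coordinates came from GENCODE M21 (GRCm38), which matched 48435 of 48795 IDs with the version ignored. The 5 summary rows that name no gene, 18.8 to 46.0% of all counts, were left out of library sizes.

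TMM factors from edgeR 4.0.16 (R 4.3.3) scaled the gene counts to CPM; log2 CPM used a prior count of 2. The filter kept genes reaching 10 counts in 3 or more libraries. Other software was matplotlib 3.10.9, scipy 1.17.1, pandas 2.3.3 and numpy 2.4.6 under Python 3.11.15. Because no library has a group, no test between groups was run; Dixon's ratio was used to mark single libraries far from the rest. A range is the highest minus the lowest log2 CPM. Intervals are exact 95% Poisson intervals for levels and Clopper-Pearson intervals for ratios; they and the floor of 3 counts cover counting error only, and nothing shows whether libraries come from separate animals. The calculation of ranges was checked on simulated counts. The members and lists were chosen with earlier results of these data known. Named genes are the 10 members, the 3 most abundant and 2 most variable genes of each related list (the latter at a median of at least 5 CPM), and the 5 genes most like Il1b and Casp4; others were chosen after their values were seen. Results were recomputed with total counts, DESeq2 1.42.0 size factors, a prior of 0.5, no filter, the longest transcript, and leaving out libraries.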

Additional observations from a re-analysis of the deposited data

Results flagged for a closer look

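Of 17 values examined over the 6 libraries (the 10 members, 6 list sums and the Il1b to Il18 ratio), 3 had a highest library set apart from the next by more than Dixon's 95% critical ratio. Chance marks about 1 in 20 groups, and the ratio shares its numerator with the first value. The share of all filtered genes past Dixon's ratio in any library was not computed and may differ from that. Il1b was known from earlier results of these data to be highest in 1 library. The chance rate therefore does not apply to Il1b or to its ratio to Il18. CD174 was highest for 29.9% of filtered genes and lowest for 37.2%. Il1b was at 104.8 CPM in CD176, with a gap of 0.794 of its whole range to the next library, a pattern with CD176 at the top that 0.261% of filtered genes had. The ratio of Il1b to Il18 counts was 0.327 in CD176. The list of other gasdermins and membrane rupture or repair genes summed to 595.0 CPM in CD174, mostly from Chmp4b at 423.0 CPM. CD174 was also the shallowest library and had the highest epithelial marker sum; the part of either in that value was not tested.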

How the results depend on the processing

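No paired analysis was possible because the labels put none of the libraries in a group. The log2 range reached 1 for 2 members, also with total counts and with a prior of 0.5; with DESeq2 size factors, and without CD171 and CD174, 1 did, and with single libraries left out the count was 1 to 2. Without the filter, the share of all genes with such a range was 62.6%. Il1b in its highest library was 3.63 times the median of the others, 3.58 and 3.64 times with the other scalings, 3.62 times without CD171 and CD174, and 1.37 to 3.75 times when 1 library was left out (3.17 without CD170, 3.15 without CD174, 3.26 without CD177), the lowest being without CD176, when the log2 range of Il1b fell to 0.88. The highest Il1b to Il18 ratio was 0.150 to 0.327 when 1 library was left out, the lowest again without CD176. Median levels per kilobase ran from Il18 at 309.2 CPM to Casp4 at 4.69 CPM, and with the longest transcript from Il18 at 360.2 CPM to Pycard at 6.71 CPM; leaving out 1 library gave 307.6 to 310.8 CPM for Il18 and 4.45 to 4.93 CPM for Casp4. Without CD171, the log2 ranges were 0.25 for Il18, 0.23 for Aim2, 0.41 for Nlrc4, 0.51 for Casp1 and 0.75 for Casp4, against 0.58, 0.59, 0.74, 0.79 and 1.01 with all libraries. That of Casp1 was 0.49 without CD174, that of Naip2 (0.57) was 0.31 without CD174 and 0.32 without CD177, and that of Gsdmd (0.17) was 0.08 without CD176. With total counts the log2 ranges were 0.58 for Casp1, 0.85 for Naip2 and 0.32 for Gsdmd. Apart from the libraries, genes and lengths left out by construction, the cause was not tested. Depth limits Casp4 (142 counts) and Il1b (181 counts) most, both in CD174.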

Other observations

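Beside Il1b, 3 of the 44 genes that were highest in CD176 at 2 times the next library or more had a median of at least 10 CPM; they were picked after their values were seen. Osm, oncostatin M, a cytokine of the IL-6 family made by activated macrophages, had 140.5 CPM in CD176, 49.1 in CD170, 41.8 in CD178, 41.3 in CD177, 32.3 in CD174 and 18.7 in CD171, with CD176 at 2.86 times the next library. Hspa1b, an inducible heat shock protein, was at 74.7 CPM in CD176, 34.7 CPM in CD174 and 3.37 to 13.1 CPM elsewhere, and Gm47283 at 56.1 CPM in CD176 and 7.75 to 22.1 CPM elsewhere. Hspa1a, nearly identical to Hspa1b and below that median, was at 37.5 CPM in CD176, 15.5 CPM in CD174 and 1.27 to 3.45 CPM elsewhere. Of the genes in the related lists, 0 were among the 44. Those 44 were 0.348% of all filtered genes, so a count of 0 in lists this short says little. Hspa8, in the list of partners, was also highest in CD176, at 3034 CPM.

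Naip1, which in mice binds the needle protein of bacterial secretion systems, had 8.64 CPM in CD174 (58 counts) and 1.44 to 2.71 CPM elsewhere, while its relatives Naip2, Naip5 and Naip6 were not highest there.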
